A study of Sus scrofa with 9 samples.

Results

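Interferon-stimulated genes were examined one by one and heart by heart in the myocardium of 9 pigs. The set comprised 50 genes chosen by symbol as known targets or carriers of the interferon response. Of the 25149 genes in the deposited table, 38 carried one of the 50 symbols, and 35 of these had a level of 1 TPM or more, the length-corrected transcript share explained further on, in no fewer than 3 of the 9 hearts. Those 35 were tested together with all other genes that met the same minimum, 11782 in total. The table held no row named IFIT3, OAS1, BST2, IFITM3, GBP1, ISG15, IFNAR1, IFNAR2, IFI6, XAF1, LGALS3BP or EPSTI1, so these 12 genes were not analysed here. OASL missed the minimum, and IRF7 and HERC6 were listed at 0 in all 9 hearts.

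All hearts came from female Yorkshire pigs aged 4 to 6 months that underwent donation after circulatory death (DCD) with 15 min of warm ischemia. In Group 1 (NRP + HOPE 24 h, pigs 27, 28 and 30), 60 min of normothermic regional perfusion (NRP), which restores warm blood flow inside the donor, preceded 24 h of hypothermic oxygenated perfusion (HOPE) at 8 °C. In Group 2 (NRP + SCS 2 h, pigs 24, 25 and 29), the same NRP preceded 2 h of static cold storage (SCS) at 4 °C, and in Group 3 (No NRP + HOPE 2 h, pigs 31, 33 and 34), hearts went to 2 h of HOPE without NRP. Every heart was then reanimated for 2 h by normothermic machine perfusion (NMP), and its apex was biopsied when NMP ended. Each heart is a separate animal, the 3 groups hold 3 hearts each, and none of the 9 hearts is an untreated control.

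Cells that sense viral or misplaced nucleic acid secrete type I interferon, which binds the receptor formed by IFNAR1 and IFNAR2 on the same and neighbouring cells. The receptor kinases JAK1 and TYK2 then activate STAT2, which acts with IRF9 to switch on a shared program of antiviral genes. Several of the induced genes are themselves sensors or transcription factors of the pathway, so the response can amplify itself, and in the heart cardiomyocytes, endothelial cells, fibroblasts and macrophages can all mount it.

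TPM expresses a transcript's share of its library after correction for gene length, on a total of 1000000, so levels may be compared between genes, but it keeps no sequencing depth and no counting error can be given. Genes at 1 TPM or more numbered 10285 to 11496 per heart, and mitochondrially encoded genes took 38.2% to 55.4% of the TPM. The samples are labelled as cardiomyocytes, and TNNT2, cardiac troponin T, reached 7220 to 15220 TPM, but the endothelial marker PECAM1 (99.7 to 234 TPM) and the leukocyte marker PTPRC (3.03 to 10.1 TPM) were present in every heart. In such bulk tissue, fewer cells of a type and less RNA per cell cannot be told apart. An entry of 0 is reported only as listed at 0, because MYH11, a smooth muscle gene, was also listed at 0 in every heart.

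A single heart stood above the others. Pig 34, one of the Group 3 hearts (No NRP + HOPE 2 h), had the highest level of all 9 hearts in 35 of the 35 members tested, whereas it was highest for 22.2% of all genes tested. Its TPM exceeded that of every other heart more than 2 times in 29 of the 35 members, against 2.25% of all genes tested. The exceptions were GBP2, SAMD9, IRF1, IRF3, IRF9 and IFI35, in which pig 34 was highest by a smaller margin.

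For each gene, the log2(TPM + 1) of a heart was compared with that of the median heart. The median over the 35 members was 2.32 in pig 34, with quartiles of 1.63 and 2.79, while the median over all genes in that heart was 0.13. Pig 33 from the same group followed at 0.61, and it was the second highest heart in 22 members, against 14.2% of all genes. Pig 31, the third heart without NRP, had a median of -0.47, while its all-gene median was -0.29, and it was the lowest heart in 10 of the 35 members, near the 24.7% of all genes. With median-of-ratios scaling or quantile normalization its median over the members was 0.00.

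Among the hearts that received NRP, pigs 28 and 30 had medians of 0.00 and 0.00, and pigs 24, 25 and 29 had -0.28, 0.08 and -0.15. Pig 27 was the lowest of all at -0.80, being the lowest heart in 18 members, although it was also lowest for 28.7% of all genes and its all-gene median was -0.36. With those scalings pig 27 had medians of -0.32 and -0.33. Pig 30, the highest heart for 33.8% of all genes, was second highest in 4 members. With pig 34 highest in 35 of 35 members, no other heart could be highest. The 3 hearts without NRP did not form one level: the median distance between the highest and the lowest heart of that group was 2.87 on the log2 scale over the members and 0.74 over all genes. The same distance was 1.12 and 0.88 in NRP + HOPE 24 h, and 0.61 and 0.51 in NRP + SCS 2 h.

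**Figure D1:**
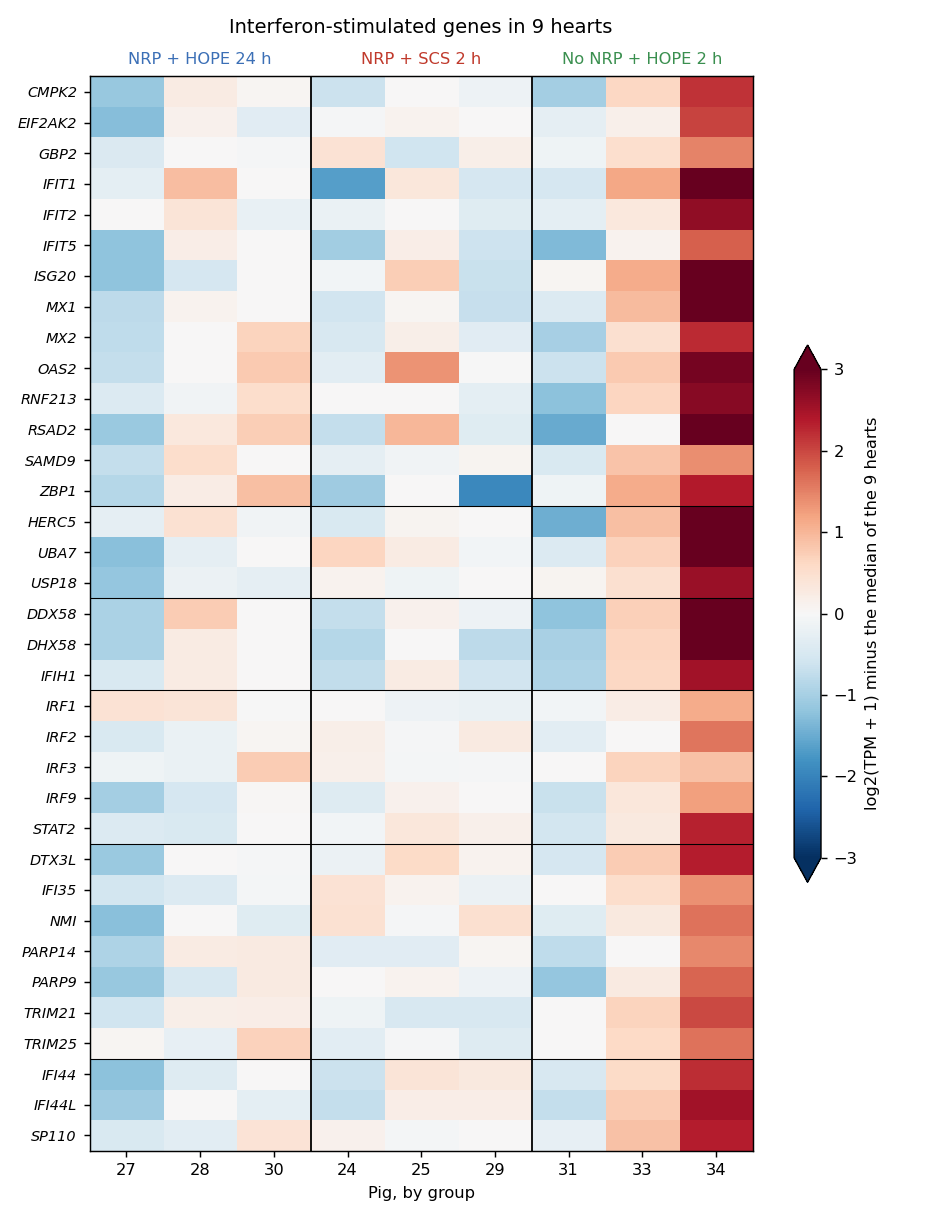
Level of each of the 35 members tested (rows, grouped by role) in each heart (columns, by pig number and group), as log2(TPM + 1) minus the median of the 9 hearts for that gene, with colour limits at -3 and 3. The column of pig 34 is the darkest red in 35 of 35 rows, and pigs 27 and 31 are mostly blue.

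When all tested genes were ordered by how far pig 34 lay above the median heart, 10 members stood among the first 50 genes and 25 among the first 200. In each of the other 8 hearts the first 50 held 0 members, and the first 200 held 1 member in pig 25 and 0 in the other hearts. The greatest distance of a member was that of RSAD2 (viperin, an antiviral enzyme that makes a chain-terminating nucleotide), at 4.13.

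Of the ligands, 4 of 14 interferon genes were listed and 0 of them reached the minimum. IFNB1, IFNE and IFNK were listed at 0 in every heart, and IFN-DELTA-1 did not exceed 0.144 TPM and was 0 in pig 34 (these 4 genes are named with their values known). Of the receptors for interferon gamma and lambda, IFNGR1 alone was listed, at 30.2, 46.2 and 69.6 TPM in pigs 27, 28 and 30, at 39.0, 49.2 and 49.97 TPM in pigs 24, 25 and 29, and at 26.1, 36.3 and 34.9 TPM in pigs 31, 33 and 34. Pig 34 did not stand out for this receptor subunit. All values below follow this order of pigs, first Group 1, then Group 2, then Group 3.

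The 3 cytoplasmic RNA sensors of the RIG-I family were each highest in pig 34, with the widest gaps for DDX58 and DHX58. DDX58 (RIG-I, which detects RNA with a free triphosphate end) was at 5.45, 20 and 11.4 TPM, at 6.57, 12.7 and 10.2 TPM, and at 4.39, 19.2 and 134 TPM. IFIH1 (MDA5, which detects long double-stranded RNA) was at 7.67, 13.2 and 11.0 TPM, at 6.24, 13.1 and 6.98 TPM, and at 5.32, 17.5 and 67.7 TPM. DHX58 (LGP2, a regulator of both) was at 1.81, 5.39 and 4.44 TPM, at 1.98, 4.41 and 2.15 TPM, and at 1.75, 7.42 and 54.0 TPM. In all 3 genes pig 31 had the lowest and pig 34 the highest level of the 9 hearts, so the group without NRP spanned the full range and overlapped both other groups.

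Transcription factors of the pathway had the smallest excess in pig 34 of the role lists, with a median of 1.23 over 5 tested genes against 3.35 for the sensors. STAT2, the factor phosphorylated at the interferon receptor, was at 6.64, 6.40 and 9.20 TPM, at 8.65, 11.8 and 10.4 TPM, and at 5.93, 11.6 and 49.8 TPM. IRF9, its DNA-binding partner, was at 23.7, 34.3 and 49.8 TPM, at 37.2, 53.2 and 49.0 TPM, and at 30.6, 61.9 and 116 TPM. IRF2, which competes with IRF1 for the same DNA element, was at 4.47, 5.53 and 6.82 TPM, at 7.36, 6.32 and 7.97 TPM, and at 5.001, 6.45 and 21.5 TPM. Apart from pig 34, no heart exceeded 11.8 TPM for STAT2 or 7.97 TPM for IRF2. IRF1, an early interferon response gene, was the most abundant of these factors, at 106 to 165 TPM in 8 hearts and 263 TPM in pig 34. IRF3, the factor that sensors activate to start interferon transcription, had the narrowest gap of all members, with 64.1 TPM in pig 34 and 58.5 TPM in pig 30.

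Antiviral effectors, 14 of which were tested, reached the highest levels in pig 34. ZBP1, a sensor of Z-form nucleic acid that can trigger necroptosis, was at 5.63, 13.0 and 21.3 TPM, at 4.66, 10.9 and 2.10 TPM, and at 9.92, 25.0 and 61.1 TPM. IFIT1, which binds viral RNA lacking the host cap methylation, was at 20.1, 48.3 and 24.8 TPM, at 7.27, 31.5 and 17.2 TPM, and at 17.3, 56.5 and 272 TPM. ISG20, an exonuclease that degrades single-stranded RNA, was at 1.22, 2.59 and 4.11 TPM, at 3.84, 7.58 and 2.22 TPM, and at 4.30, 9.98 and 53.3 TPM. For these 3 effectors pig 33 was the second highest heart, and for ISG20 pig 31 lay above all 3 NRP + HOPE 24 h hearts.

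RSAD2 showed the largest gap of the tested members, with 468 TPM in pig 34 and 8.36 to 52.7 TPM in the other hearts. MX1, a GTPase that traps viral nucleocapsids, reached 335 TPM in pig 34 against 22.4 to 77.2 TPM elsewhere, and its neighbour MX2 218 TPM against 22.4 to 72.6 TPM. OAS2, which makes the oligoadenylate that activates RNase L, was at 281 TPM in pig 34, and pig 25 of NRP + SCS 2 h came next at 98.3 TPM. All 4 genes were expressed in every heart, and the next highest heart differed between them (pig 25 for RSAD2 and OAS2, pig 33 for MX1 and pig 30 for MX2). The narrowest gap among the effectors was that of SAMD9, at 71.1 TPM in pig 34 and 48.7 TPM in pig 33. OASL, which missed the minimum because it was at 0 to 1.17 TPM in 8 hearts, was at 30.0 TPM in pig 34.

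**Figure D2:**
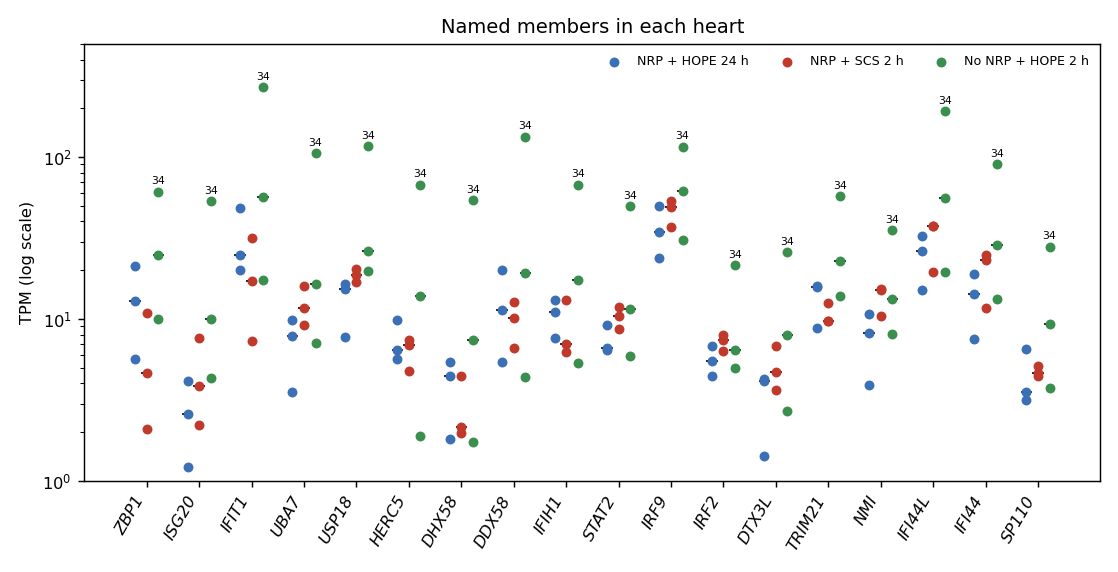
TPM (log axis) of the 18 members described with all 9 values, with 1 point per heart, coloured by group, and a short black line at each group's median. The point labelled 34 is the top of every column, from 21.5 TPM for IRF2 to 272 TPM for IFIT1, while the other 8 hearts overlap between groups in most columns, with exceptions in USP18, TRIM21 and ISG20.

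ISG15 itself, the ubiquitin-like protein that interferon induces, was not analysed here, but its conjugation machinery was measured. UBA7, the activating enzyme for ISG15, was at 3.56, 7.90 and 9.79 TPM, at 15.9, 11.7 and 9.17 TPM, and at 7.13, 16.4 and 106 TPM. HERC5, the main ligase, was at 5.62, 9.84 and 6.39 TPM, at 4.78, 7.40 and 6.94 TPM, and at 1.90, 13.9 and 67.5 TPM. USP18, which removes ISG15 and restrains the interferon receptor, was at 7.77, 16.5 and 15.2 TPM, at 20.2, 17.0 and 18.7 TPM, and at 19.7, 26.3 and 117 TPM. USP18 was the member whose 3 NRP + HOPE 24 h hearts all lay below both other groups.

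Of the 7 ubiquitin and ADP-ribose regulators, 7 were highest in pig 34. DTX3L, a ubiquitin ligase that works with PARP9, was at 1.41, 4.25 and 4.12 TPM, at 3.63, 6.80 and 4.68 TPM, and at 2.72, 7.94 and 26.0 TPM. TRIM21, a ligase that recognises antibody-coated virus in the cytosol, was at 8.84, 15.7 and 15.9 TPM, at 12.6, 9.68 and 9.65 TPM, and at 13.8, 22.7 and 57.4 TPM. NMI, an interferon-induced partner of STAT proteins, was at 3.89, 10.7 and 8.17 TPM, at 15.0, 10.4 and 15.2 TPM, and at 8.04, 13.2 and 35.2 TPM. The 3 hearts without NRP all lay above the NRP + SCS 2 h hearts for TRIM21 and also for TRIM25, the ligase that activates RIG-I, which was at 4.15, 6.82 and 15.0 TPM without NRP and at 3.11, 4.05 and 2.95 TPM in NRP + SCS 2 h.

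The remaining 3 induced genes were IFI44L, IFI44 and SP110. IFI44L was at 15.0, 32.7 and 26.4 TPM, at 19.5, 37.7 and 37.6 TPM, and at 19.6, 56.3 and 193 TPM. Its neighbour IFI44 was at 7.51, 14.2 and 18.8 TPM, at 11.7, 24.8 and 23.2 TPM, and at 13.3, 28.7 and 90.8 TPM. SP110, a nuclear body protein, was at 3.15, 3.52 and 6.48 TPM, at 5.14, 4.41 and 4.65 TPM, and at 3.73, 9.35 and 28.0 TPM. In all 3 genes pig 34 was highest, pig 33 second and pig 27 lowest.

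Several members are next to each other among the protein-coding genes of the pig (RefSeq, assembly Sscrofa11.1), namely MX1 and MX2, RSAD2 and CMPK2, IFI44 and IFI44L, and DTX3L and PARP9. One gene separates IFIT1 from IFIT2 and PARP14 from DTX3L. Only reads that mapped uniquely were counted and the library kit was not directional, so levels of near-identical paralogs in the IFIT, MX and OAS families and of overlapping genes are uncertain. One row without a symbol carried the identifier of GBP1 in the gene name table and stayed outside the set, and there pig 30 was highest at 6.12 TPM and pig 34 second at 5.57 TPM.

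The first group comparison, Group 1 against Group 2, asked whether long HOPE differed from short cold storage after NRP. The median log2 fold change over the 35 members was 0.01, against -0.12 over all genes, and 18 members were higher after HOPE for 24 h, where 35.9% of all genes were. In the limma fit over all genes, 0 of 35 members had an adjusted p under 0.05 (0.0255% of all genes did) and 0 had an unadjusted p under 0.05 (4.97% of all genes), and the smallest adjusted p of a member was 0.993. With a heart left out the median ran from -0.23 without pig 28 to 0.27 without pig 27, and it was also below 0 without pig 30 (-0.18) and pig 24 (-0.09). The hearts did not overlap in 1 member, USP18 (log2 fold change -0.53, standard error (SE) 0.52), against 9.82% of all genes. ZBP1 had the largest positive value (1.10, SE 0.63) and NMI the largest negative one (-0.83, SE 0.47), both with an adjusted limma p of 0.993. With a heart left out ZBP1 ran from 0.63 without pig 29 and 0.70 without pig 30 to 1.61 without pig 25, and NMI from -1.1 without pig 28 to -0.47 without pig 27. Leaving out pig 34, which belongs to neither group but enters the shared estimate of the spread, gave NMI an unadjusted limma p of 0.0418 and the count became 1 (5.39% of all genes). It also became 1 without pig 27 (5.53% of all genes) and without pig 25 (4.46% of all genes).

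Hearts without NRP (Group 3) were compared with Group 2 hearts, a contrast in which both NRP and the type of cold preservation differ. The log2 fold change was positive in 35 of 35 members with a median of 0.81, whereas it was positive in 42.2% of all genes with a median of -0.07. No member passed the adjusted limma test (0 of 35, against 0.0509% of all genes, smallest adjusted p = 0.416), and 6 had an unadjusted p under 0.05, against 7.22% of all genes. These were ZBP1 (log2 fold change 2.13, SE 0.63), IFIT1 (1.96, SE 0.76), MX1 (1.59, SE 0.63), ISG20 (1.52, SE 0.67), TRIM21 (1.25, SE 0.43) and TRIM25 (0.99, SE 0.41). Only TRIM21 and TRIM25 had no overlap between the groups, 2 of 35 members against 14.7% of all genes, and an exact permutation test of 3 hearts against 3 cannot give a p below 0.1.

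The size of this group difference depended on pig 34. Since pig 34 was the highest heart in 35 of 35 members, leaving it out could only lower these fold changes. Without it, the median log2 fold change was 0.06, 19 of 35 members were positive (32.7% of all genes) and 1 had an unadjusted limma p under 0.05 (7.02% of all genes). That member was ZBP1, with a log2 fold change of 1.5 and an unadjusted limma p of 0.0234. RSAD2 moved from 0.90 with all 9 hearts to -0.73 without pig 34. TRIM21 and TRIM25 kept log2 fold changes of 0.70 and 0.55 without it, with pigs 31 and 33 still above all Group 2 hearts. Leaving out pig 31, the lowest heart of the same group by its median, instead raised the median to 1.54 and the count to 31 of 35 members (7.17% of all genes), still with 0 adjusted calls. Without pig 24 or pig 29 of the NRP + SCS 2 h group the count was 3 (4.12% and 6.76% of all genes).

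The comparison of Group 1 with Group 3, in which NRP and the duration of HOPE both differ, mirrored the previous one and shares the No NRP hearts with it. The log2 fold change was above 0 in 0 of 35 members, against 46.1% of all genes, and its median was -0.96, against -0.03 over all genes. Adjusted calls were again 0 of 35 (0.0509% of all genes, limma, smallest adjusted p = 0.503), and 12 members had an unadjusted p under 0.05, against 6.01% of all genes. The 12 were ISG20, USP18, IFI35, UBA7, IFI44, MX1, NMI, TRIM21, DTX3L, EIF2AK2, SP110 and IFI44L, all lower in NRP + HOPE 24 h. ISG20 had the largest difference, with a log2 fold change of -2.09 (SE 0.67), and USP18 followed among those without overlap at -1.58 (SE 0.52). ISG20, USP18 and IFI35 did not overlap between the groups, 3 of 35 members against 7.48% of all genes.

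Without pig 34 the median of this comparison was -0.17, 10 of 35 members were positive (56.9% of all genes) and 2 had an unadjusted limma p under 0.05 (4.93% of all genes). These were ISG20, at -1.15 with an unadjusted limma p of 0.0347, and USP18, at -0.81 with an unadjusted limma p of 0.0448. Without pig 31 the median was -1.65 and the count 32 of 35 (8.76% of all genes), and without pig 27 of the NRP + HOPE 24 h group they were -0.63 and 3 (8.38% of all genes).

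**Figure D3:**
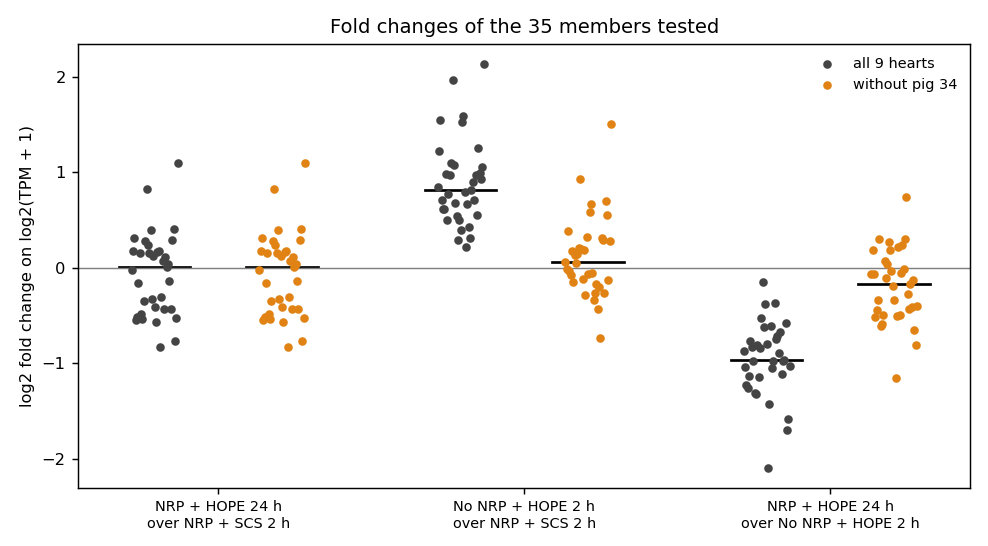
Log2 fold change on the log2(TPM + 1) scale of the 35 members tested (1 point per gene, spread sideways for visibility) in the 3 group comparisons, with all 9 hearts (grey) and without pig 34 (orange). Black lines are medians: they lie at 0.01, 0.81 and -0.96 with all hearts and at 0.01, 0.06 and -0.17 without pig 34.

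Genes of the pathway outside the 50 members were read from lists written by symbol. Of 36 further interferon-induced genes, 20 were listed and 19 tested, and 18 of the 19 were highest in pig 34, which was highest for 22.2% of all genes. In the comparison of hearts without NRP with NRP + SCS 2 h, 3 of the 19 had an unadjusted limma p under 0.05 (CASP1, MLKL and TNFSF10, all higher without NRP, against 7.22% of all genes) and 0 an adjusted one. In the comparison of NRP + HOPE 24 h with hearts without NRP the counts were 4 (CASP1, TNFSF10, PARP12 and UBE2L6, all lower after NRP and 24 h, against 6.01% of all genes) and 0. Without pig 34, the 3 genes became 0 and the 4 became 1, against 7.02% and 4.93% of all genes. Without pig 31 they became 15 and 14, against 7.17% and 8.76%, and without pig 33 they became 3 and 2, against 7.43% and 5.95%. TNFSF10, the death ligand TRAIL, was at 7.03, 20.6 and 10.4 TPM, at 8.67, 11.6 and 17.3 TPM, and at 11.5, 31.8 and 167 TPM. PARP12, an interferon-induced ADP-ribosyltransferase, was at 110 TPM in pig 34 and 8.01 to 31.2 TPM in the other hearts.

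CASP1, the inflammatory caspase that matures interleukin-1 beta, had the largest absolute log2 fold change of its list, and its groups did not overlap in any of the 3 comparisons. Taken singly, these separated 9.82%, 14.7% and 7.48% of all genes, and the share separated in all 3 was not determined. CASP1 was at 0.251, 0.245 and 0.467 TPM, at 1.67, 0.934 and 1.58 TPM, and at 1.90, 3.25 and 10.8 TPM, so its Group 1 values lay below 1 TPM. Its log2 fold change was -2.00 (SE 0.45) between Group 1 and Group 3 with a limma adjusted p of 0.248, and -1.41 without pig 34 with an unadjusted limma p of 0.00201. Against NRP + SCS 2 h it was -0.85 (SE 0.45) for NRP + HOPE 24 h and 1.15 (SE 0.45) for No NRP + HOPE 2 h, with adjusted limma p of 0.993 and 0.600.

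Of 22 genes of nucleic acid sensing upstream of interferon, 14 were listed and 11 tested, and pig 34 was highest for 8 of the 11 (22.2% of all genes). TREX1, the exonuclease that clears cytosolic DNA, was at 2.73, 2.69 and 4.84 TPM, at 1.09, 1.89 and 2.12 TPM, and at 3.46, 2.79 and 20 TPM. It was the 1 gene of the 11 with an unadjusted limma p under 0.05 (7.22% of all genes) between hearts without NRP and NRP + SCS 2 h (log2 fold change 1.41, SE 0.53, adjusted p = 0.583), and 0 genes passed in the other comparisons. Without pig 34 the count between these groups was 0 of 11 (7.02% of all genes), and without pig 31 it was 4 (7.17%). Between Groups 1 and 3 it was 0 without pig 34 (4.93% of all genes) and 5 without pig 31 (8.76%). ADAR, which edits double-stranded RNA and also stands in the list of further induced genes, was at 55.8 TPM in pig 34 and 4.69 to 14.1 TPM in the others. CGAS, the cytosolic DNA sensor, was at 4.83 TPM in pig 34 and did not exceed 1.04 TPM elsewhere.

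JAK-STAT signaling genes were mixed in pig 34. Of 10 genes, 8 were listed and 7 tested, and pig 34 was highest for 3 (22.2% of all genes). Its median difference from the median heart was 0.23 over the 7, against 0.13 over all genes, and the difference between this list and the members was not tested. SOCS1, the feedback inhibitor of JAK kinases, was at 16.7, 15.7 and 22.02 TPM, at 34.0, 19.6 and 17.6 TPM, and at 24.1, 32.4 and 61.2 TPM. JAK1, the receptor kinase, was at 24.5 TPM in pig 34, below the 30.5 TPM of the median heart. It was lower in the hearts without NRP than in NRP + SCS 2 h without overlap (log2 fold change -0.61, SE 0.28, limma, adjusted p = 0.689). Those groups did not overlap for 14.7% of all genes. PTPN6, a phosphatase that dampens cytokine signaling, was at 4.85 TPM in pig 34 and 5.07 TPM in pig 29. Per comparison, unadjusted p under 0.05 was reached by 1 of the 7 genes (PTPN6 in the first, JAK1 in the second, SOCS1 in the third), against 4.97%, 7.22% and 6.01% of all genes, with 0 adjusted calls. Without pig 34 neither JAK1 nor SOCS1 reached it, at log2 fold changes of -0.56 and -0.61. Without pig 31 JAK1 did not reach it either, while 1 other gene of the 7 did as higher in Group 3 (7.17% of all genes). Without pig 33 neither PTPN6 nor JAK1 did, at -0.92 and -0.71, and pig 33 belongs to neither group of the PTPN6 comparison.

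Of 23 genes induced mainly by interferon gamma, 10 were listed by symbol and 5 tested, and pig 34 was highest for 3 of the 5 (22.2% of all genes). CIITA, the master regulator of MHC class II, was at 1.87, 2.04 and 4.15 TPM, at 9.81, 4.07 and 5.89 TPM, and at 2.17, 7.42 and 10.1 TPM, and it was the 1 gene of the 5 with an unadjusted limma p under 0.05, between Group 1 and Group 2 (4.97% of all genes, log2 fold change -1.02, SE 0.46, adjusted p = 0.985). Between Groups 1 and 3, 0 of the 5 reached it with all hearts (6.01% of all genes) and 3 without pig 31 (8.76%). CXCL11, a T cell chemokine, was highest in pig 30 at 6.40 TPM and at 3.70 TPM in pig 34. TAPBP (tapasin), which loads peptides onto MHC class I, was at 93.9 TPM in pig 34 and 24.0 to 50.3 TPM in the others.

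**Figure D4:**
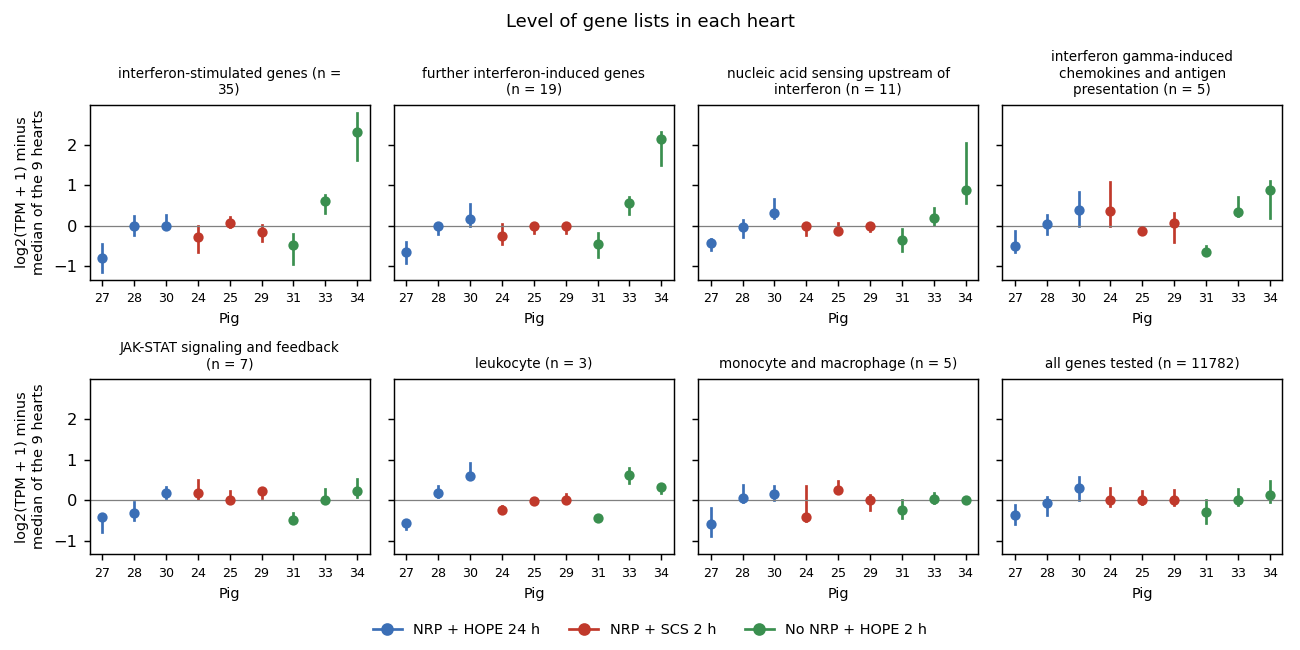
Median (point) and quartiles (line) over the tested genes of 8 lists of log2(TPM + 1) minus the median of the 9 hearts, for each pig, coloured by group. Pig 34 reaches 2.32 for the interferon-stimulated genes, 2.14 for the further induced genes and 0.88 for nucleic acid sensing, but 0.23 for JAK-STAT signaling, 0.34 for leukocyte markers, 0.00 for monocyte and macrophage markers and 0.13 for all genes.

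Markers of other cells were read beside these levels. Summed leukocyte markers (3 of 4 listed) were at 70.5 TPM in pig 34, inside the 42.7 to 110 TPM of the other hearts, where pig 34 took position 4. Summed monocyte and macrophage markers (5 of 9 listed) were highest in pig 34 at 217 TPM, against 62.5 to 186 TPM, through the complement gene C1QA (180 TPM, against 31.5 to 136 TPM), whereas CD68 was at its median over the hearts, 21.8 TPM. T and NK cell markers (7 of 8 listed) summed to 30.5 TPM in pig 34 and 31.0 TPM in pig 30, with CD2 at 11.9 TPM in pig 34 and at most 4.12 TPM elsewhere. CD2 was the 1 marker of the 7 that was highest in pig 34, while 4 were highest in pig 30. The median difference of the 7 from the median heart was 0.14 in pig 34 and 0.69 in pig 30. Plasmacytoid dendritic cell markers (3 of 8 listed), which mark a main source of type I interferon, summed to 64.8 TPM in pig 34 and 64.9 TPM in pig 33. TCF4, which other cells also express, made up 56.9 TPM of the sum in pig 34, and CLEC4C, LILRA4 and IL3RA, which mark these cells more closely, were not analysed here. The median difference of the 3 markers from the median heart was 0.64 in pig 34, the highest of the 9 hearts. Neutrophil markers (5 of 8 listed, 2 of them at 0 throughout) summed to 1.58 TPM in pig 34, against 0.799 to 14.5 TPM, and B and plasma cell markers (4 of 6 listed) to 1.12 TPM, against 1.12 to 5.66 TPM.

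Of the red cell markers, HBB, a hemoglobin chain, was at 70.8, 132 and 78.4 TPM in Group 2 and 220, 368 and 220 TPM in Group 3, without overlap (log2 fold change 1.52, SE 0.52, limma, adjusted p = 0.516). All 3 tested red cell markers were higher in Group 3 without overlap, where 14.7% of all genes did not overlap. They were also higher in Group 1 than in Group 2, with overlap (median log2 fold change 0.91). S100A9, an abundant neutrophil protein, was lower in Group 3 than in Group 2 without overlap (log2 fold change -2.17, SE 0.46, limma, adjusted p = 0.140). ELANE, the elastase of neutrophil granules, overlapped between these groups, at 1.29, 1.89 and 2.83 TPM in Group 2 and 0.456, 4.06 and 1.58 TPM in Group 3. Between Groups 2 and 3, 2 of 5 tested fibroblast and 1 of 4 smooth muscle and pericyte markers also did not overlap. The same held for 1 of 5 monocyte and macrophage and 1 of 7 T and NK cell markers. Between Groups 1 and 3, ACTA2, the actin of smooth muscle, was at 15.8, 41.6 and 45.7 TPM and at 72.0, 72.9 and 88.1 TPM, without overlap (log2 fold change -1.28, SE 0.36, limma, adjusted p = 0.402). It was the 1 of the 4 tested smooth muscle and pericyte markers without overlap, against 7.48% of all genes. The log2 fold changes of TAGLN, PDGFRB and CSPG4 were -0.49, -0.36 and 0.44. CLEC14A, an endothelial surface protein, was at 31.7, 64.8 and 60.2 TPM in Group 1 and 51.7, 97.8 and 141 TPM in Group 3, with overlap (log2 fold change -0.83, SE 0.37, limma, adjusted p = 0.826). Over the 6 tested endothelial markers the log2 fold change had a median of -0.04 and ran from -0.83 to 0.13, with 2 of 6 above 0. The part of these markers in the differences of the members was not tested.

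Cardiomyocyte, endothelial, fibroblast, smooth muscle and erythroid markers placed pig 34 in positions 2, 4, 4, 5 and 5 of the 9 hearts, in that order. Pig 34 also lay farthest from the other hearts over all genes, with a mean Euclidean distance on log2(TPM + 1) of 90.1, against 74.5 to 87.6, and its mitochondrial share was 44.8%. The part of these cell and library differences in the interferon-stimulated genes was not tested.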

How the data were processed

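The authors deposited 1 table of TPM values per gene, scaled to a total of 1000000 per library. Per the labels and the supplemental methods, apex RNA was enriched with oligo(dT) beads, trimmed (Trimmomatic 0.36), mapped to the pig genome (STAR 2.5.2b) and counted as unique reads in exons (Subread 1.5.2). The genome build is not given in the sources used here. A further 9 columns matched no sample and were not used.

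Groups came from the sample labels. Values were tested as log2(TPM + 1) with limma 3.58.1 in R 4.3.3 (1 mean per group, eBayes with trend, two-sided, all 9 hearts), for genes that reached 1 TPM in 3 or more hearts, and p-values were adjusted by Benjamini-Hochberg over 11782 genes. Fold changes on this scale understate those of low genes. The test differs from the authors' DESeq2, since TPM are not counts. The code was tested on simulated data. Members, lists and tests were chosen with earlier results of these data known. Values in all 9 hearts are given for the 3 members per role with the largest absolute log2 fold change in any comparison, among them STAT2 and IRF9, which the rule also required, and up to 3 genes per pathway list were named by the same measure. An item the rule also named is not reported here. MLKL, UBE2L6 and the members with the largest gaps were named after their values were seen. Promoter and protein sequences were not used here. Alternatives covered pseudocount, filter, scaling, model options and leaving out each heart. Python 3.11.15 and matplotlib 3.10.9 made the summaries and figures.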

Additional observations from a re-analysis of the deposited data

How the results depend on the processing

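No member of the set had an adjusted limma p under 0.05 in any comparison under any of the alternatives run (0 in each), which covered 10 other settings and each heart left out in turn. The count of members with an unadjusted limma p under 0.05 moved more, and the share of all genes is given in parentheses. Between Group 1 (NRP + HOPE 24 h) and Group 2 (NRP + SCS 2 h) it was 0 and became 2 with only the 6 hearts compared (5.49%), and 0 to 1 with a heart left out. For Group 3 (No NRP + HOPE 2 h) over Group 2 it was 6 and became 3 without the filter on low values (6.28%), 12 with quantile normalization (12.3%), 11 with median-of-ratios scaling (12.4%), 3 with robust eBayes (6.99%), 13 with array weights (15.8%), and 1 to 31 with a heart left out. For Group 1 over Group 3 it was 12 and became 3 without the filter (5.45%), 5 with robust eBayes (5.80%), and 2 to 32 with a heart left out. The cause was not tested. The median level of pig 27 moved from -0.80 to -0.33 with quantile normalization and -0.32 with median-of-ratios scaling, and that of pig 31 from -0.47 to 0.00 with both. Median-of-ratios scaling shifted the median of all genes between Groups 1 and 2 by 0.12, and under it pig 34 was the highest heart in 34 of 35 members, with IRF1 highest in pig 27. Array weights gave 1 member above 0 for Group 1 over Group 3.

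With a heart left out, the log2 fold change of Group 3 over Group 2 ranged from -0.13 to 1.73 for UBA7, -0.15 to 2.13 for HERC5, -0.01 to 2.31 for DDX58, -0.26 to 1.18 for STAT2, -0.07 to 0.87 for IRF9, -0.29 to 0.66 for IRF2, -0.03 to 1.40 for DTX3L and -0.34 to 0.66 for NMI. In each of the 8 genes the lowest value, the only one below 0, was that without pig 34.

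No paired analysis was possible because each pig number occurs in 1 group only. TPM keeps no depth, so counting error is unknown, and with 3 hearts a group differences smaller than the spread between hearts were not resolved. NRP differs together with the type of cold preservation between Groups 2 and 3 and together with its duration between Groups 1 and 3, and these cannot be told apart.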

Other observations

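Genes outside all of the lists also stood far above the median heart in pig 34 and are named with their values known, as a description with no test. PLAC8 was at 234 TPM in pig 34 and 2.78 to 17.1 TPM in the other hearts, UNC93B1, which carries nucleic acid-sensing Toll-like receptors to endosomes, at 68.2 TPM and 3.05 to 11.7 TPM, and FCGR1A, the high-affinity IgG receptor of myeloid cells, at 30.7 TPM and 1.42 to 4.51 TPM. BCL2L14 was at 26.0 TPM in pig 34 and at most 2.74 TPM elsewhere, and the transcription factor gene ETV7 at 46.1 TPM and at most 7.72 TPM.

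The named gene farthest above the median heart in pig 34 was CDHR4, a cadherin-related gene, at 169 TPM in pig 34 and 4.98 to 13.2 TPM in the others. It lies 2 places from the member UBA7 among the protein-coding genes of Sscrofa11.1, so another protein-coding gene lies between them. Strand and distance were not examined, and whether reads of one gene were counted for the other was not tested.

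CYP1A1, a target of the aryl hydrocarbon receptor, was also high in pig 34 at 104 TPM but followed another order of hearts, with 32.8, 52.3 and 72.1 TPM in pigs 27, 28 and 30, 3.78, 5.55 and 0.863 TPM in pigs 24, 25 and 29, and 12.6 and 9.12 TPM in pigs 31 and 33. NT5C3A, an interferon-induced nucleotidase identified through the gene name table because its row had no symbol, was at 56.8 TPM in pig 34 and 1.92 to 8.23 TPM in the others.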
